A study of Mus musculus with 8 samples.

Results

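The muscle miRNAs are a small group of microRNAs, short regulators of mRNA stability and translation, that are best known from heart and skeletal muscle. They were taken from sperm small RNA of mice by name: all miRNA entries of the count table with the stem miR-1a, miR-133a, miR-133b, miR-206, miR-208a, miR-208b or miR-499, whatever the arm. This gave 8 of 956 miRNA entries, namely mmu-miR-1a-3p, mmu-miR-1a-1-5p, mmu-miR-133a-3p, mmu-miR-133a-5p, mmu-miR-133b-3p, mmu-miR-208a-3p, mmu-miR-208b-3p and mmu-miR-499-5p (the species prefix is left out where it is not needed). The stem miR-206 matched 0 entries, so miR-206 was not analysed here. The study compared 4 control with 4 ethanol libraries of mouse sperm one month after alcohol exposure had ended, per the series title. Strain, genotype, age, dose and route of ethanol are not stated in the sources used here. The labels number the libraries of each group without tying them to individual animals, and the p-values therefore describe only how these libraries vary, which may be technical. The question was whether miR-499-5p followed the other striated muscle miRNAs and the smooth muscle miRNAs, or differed apart from them.

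In striated muscle, miR-1 and miR-133 are made from shared precursor transcripts and act in muscle differentiation and proliferation. miR-208a, miR-208b and miR-499 lie in introns of myosin heavy chain genes and are made together with them, which is why they are called myomiRs and are associated with the choice between fast and slow fibre programmes. miR-143 and miR-145 come from another locus and mark smooth muscle and connective tissue, both of which surround the epididymal duct in which sperm are stored. In bulk RNA such as this, fewer cells of a type and less RNA per cell cannot be told apart.

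Mature sequences of 5 of the 8 entries were found in RefSeq (GRCm38.p6), and the 3 myosin-encoded ones are shown because they share most of a seed, the bases 2 to 8 that pair with target mRNAs. They are written 5′ to 3′ with the seed in capitals.
mmu-miR-499-5p: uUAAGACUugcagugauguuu
mmu-miR-208a-3p: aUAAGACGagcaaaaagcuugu
mmu-miR-208b-3p: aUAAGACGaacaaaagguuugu
The miR-499-5p and miR-208a-3p sequences were identical for 6 bases in a row from base 2, as were those of miR-499-5p and miR-208b-3p, and they differed at the last base of the seed. The seeds of miR-208a-3p and miR-208b-3p were identical. Aligned from base 1, with the 6 shared bases included, miR-499-5p matched miR-208a-3p at 12 of 21 positions and miR-208b-3p at 10 of 21. The sequence of miR-133b-3p is shown for its different seed.
mmu-miR-133b-3p: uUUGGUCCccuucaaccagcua
The mature miR-133a-3p and miR-133b-3p are near-identical copies, so the division of reads between these entries is uncertain. In RefSeq the mature miR-499-5p lies at chr2:155622893-155622913 on the plus strand. Its hairpin, chr2:155622880-155622958, lies in intron 19 of the 42-exon myosin gene Myh7b, on the same strand, in GENCODE M21 on that build. The hairpins of miR-208a and miR-208b lie on chromosome 14 in intron 29 of Myh6 and intron 31 of Myh7, the genes of the main cardiac myosin heavy chains.

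The libraries held 3481865 to 6975180 counts, of which 217055 to 1167609 were miRNA counts. miRNAs made up 16.3% to 26.7% of the counts in control and 6.23% to 9.90% in ethanol libraries, with no overlap, and the part of this in the levels below was not tested. A pair of libraries, control replicate 2 and ethanol replicate 2, stood apart, each within its own group. Pearson's r of log2 CPM (counts scaled to library size with TMM factors, as CPM is used throughout) over features, which are no independent replicates and share library depth, was 0.905 to 0.938 for pairs of controls and 0.688 to 0.822 for pairs with ethanol replicate 2. By r, control replicate 2 was hardly apart from the other controls (0.905 to 0.9215 with them, 0.9212 to 0.938 among them). It differed more from them beyond counting noise (chi-square per degree of freedom 28.4 to 34.3, against 9.21 to 15.1 among them). In the ethanol group this value was 88.9 to 122 for pairs with replicate 2. It was 21.8 to 74.9 among ethanol replicates 1, 3 and 4, so that group was uneven without replicate 2 too. Control replicate 2 also had the highest level of each abundant muscle miRNA, so leaving it out takes away the highest values of the members. The 10 sperm and spermatid transcripts on the marker list, protamines among them, were all present and summed to 611 to 752 CPM in control and 229 to 631 CPM in ethanol libraries, with ethanol replicate 2 lowest. Of these 10, 0 passed in either direction (edgeR), where 24% of 6532 tested mRNA exon features did, 23.8% with a higher level in ethanol. All 10 had a negative log2 fold change, from -0.93 to -0.43 with a median of -0.55. Smcp and Odf1, which encode a protein of the sperm mitochondrial capsule and one of the outer dense fibres of the tail, had the highest levels.

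mmu-miR-499-5p was a rare miRNA in these sperm and was lower in every ethanol library than in any control library. It had 19, 38, 17 and 12 counts in control replicates 1 to 4, and 5, 2, 10 and 3 counts in ethanol replicates 1 to 4. In CPM these were 4.98, 9.82, 4.24 and 3.34 in control sperm and 0.735, 0.421, 1.89 and 0.519 in ethanol sperm. The groups did not overlap. Ethanol sperm had 0.890 ± 0.677 CPM against 5.60 ± 2.90 CPM in control (SD, n = 4 each). The log2 fold change of miR-499-5p was -2.62 ± 0.51 (SE, edgeR quasi-likelihood test, adjusted p = 0.0286 over 13513 features). It entered that test only through its levels in control libraries, so this p-value is given as a description. By counting error alone, the 86 control and 20 ethanol counts put control sperm 6.41 times higher in CPM (exact 95% binomial limits 3.91 and 11.01).

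Such a difference was common among miRNAs. Of 226 tested miRNAs 89, or 39.4%, passed with a lower level in ethanol sperm, 41.6% had every ethanol library below every control library, 90.7% had a negative log2 fold change, and the median log2 fold change of tested miRNAs was -1.52. Over all 13513 features 13.6% passed in either direction and 1.75% with a lower level, 6.91% had every ethanol library below every control library, and the median was -0.01. Among these miRNAs miR-499-5p had the second smallest p and the 10th most negative fold change, but 20 miRNAs with a lower level, itself included, shared its adjusted p. These ranks are a description, since miR-499-5p was tested only because of the controls: all 4 control libraries and 0 ethanol libraries reached the filter level of 2.28 CPM (before scaling). The call ended without any 1 control replicate (edgeR adjusted p 0.0612 to 0.0951), as did nearly all calls. In those fits 3 to 10 of all features and 1 miRNA passed. The estimate stayed between -3.35 and -2.30 over all 8 libraries left out in turn. Without both libraries that stood apart, a choice made after seeing the data, it was -2.06 (edgeR adjusted p = 0.0115), and limma-voom gave -2.65 (adjusted p = 0.0568).

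**Figure D1:**
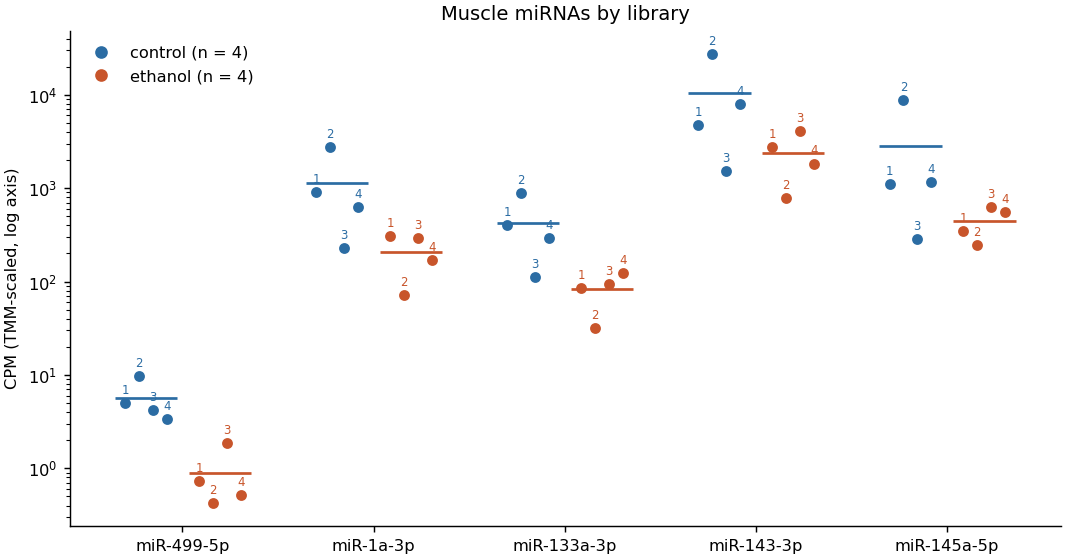
CPM on a log axis of miR-499-5p, of the abundant striated muscle miRNAs and of the smooth muscle miRNAs, with 1 point per library, replicate numbers beside the points and a bar at each group mean. For miR-499-5p the 4 ethanol libraries (0.421 to 1.89 CPM) lie below the 4 controls (3.34 to 9.82 CPM), while in the other 4 miRNAs control replicate 3 lies among the ethanol libraries.

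miR-1a-3p and miR-133a-3p, the most abundant miRNAs of striated muscle, held 72.1% and 27.3% of all counts of the 8 entries, against 0.343% for miR-499-5p. Both fell in ethanol sperm by about as much as miR-499-5p, but with overlapping groups. mmu-miR-1a-3p had 902, 2780, 227 and 625 CPM in control replicates 1 to 4, and 305, 71.1, 289 and 171 CPM in ethanol replicates 1 to 4. Control replicate 2 was far above the rest, and control replicate 3 lay below ethanol replicates 1 and 3. The log2 fold change was -2.44 ± 0.70 (edgeR adjusted p = 0.0368), and 3 of 4 controls lay above the highest ethanol library. Without control replicate 2 it was -1.55 (adjusted p = 0.123), and the call was also lost without each other control and without ethanol replicate 4 (edgeR adjusted p 0.0612 to 0.0980). Nearly all calls over all features were lost too without any 1 control.

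mmu-miR-133a-3p, which is transcribed with miR-1a, had the same order of controls. Its levels were 402, 893, 112 and 290 CPM in control replicates 1 to 4, and 85.2, 31.8, 93.7 and 124 CPM in ethanol replicates 1 to 4. Only ethanol replicate 4 lay above the lowest control, which was again replicate 3. The log2 fold change was -2.34 ± 0.61 (edgeR adjusted p = 0.0303), and the call was lost without any 1 control (adjusted p 0.0612 to 0.0951). So were nearly all calls over all features. The count ratio of miR-1a-3p to miR-133a-3p was 2.02 to 3.11 in control and 1.38 to 3.58 in ethanol libraries, so the ethanol values spanned those of the controls. The 3 tested entries that passed, of 3, are not read against the 39.4% above, because miR-499-5p reached the test only through the controls. Without control replicate 2 and ethanol replicate 2 the estimates were -1.43 for miR-133a-3p (edgeR adjusted p = 0.0327) and -1.23 for miR-1a-3p (adjusted p = 0.0758). Without the ethanol libraries whose codes start with POM, replicates 1 and 2, neither passed (edgeR adjusted p = 0.0681 and 0.0900).

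The other 5 entries were too rare to be tested. miR-208a-3p, the miRNA of the cardiac gene Myh6, had 0, 5, 1 and 2 counts in control replicates 1 to 4 and 0 in all 4 ethanol libraries. Set against 3 counts over the ethanol group, the limit that a count of 0 allows, it was at least 3.97-fold lower there if the 8 control counts are taken as exact. With the counting error of both groups the exact 95% binomial lower limit was 2.54-fold. miR-208b-3p, the miRNA of Myh7, had 13 counts in control and 4 in ethanol libraries, and 10 of the control counts were in control replicate 2. Its control CPM was 4.84 times the ethanol CPM (exact 95% binomial limits 1.497 and 20.4), and the groups overlapped. Both miRNAs that share the 6 bases with miR-499-5p were therefore present at a few counts per library at most, except in control replicate 2.

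miR-133b-3p, the copy of miR-133a from the miR-206 locus, had 3, 15, 1 and 3 counts in control and 0, 0, 2 and 3 counts in ethanol replicates 1 to 4, with overlapping groups. miR-133a-5p, the strand that is usually degraded, had 24 control and 9 ethanol counts. The ratio of the 3p to the 5p arm of miR-133a was 270 in control and 216 in ethanol sperm by summed counts. miR-1a-1-5p had 1 count in all 8 libraries, in ethanol replicate 3. Entries under precursor or hairpin names were as sparse: the precursor entry of miR-499 had 1 count in control and 0 in ethanol libraries, and its hairpin entry 4 and 2.

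The smooth muscle miRNAs miR-143 and miR-145a were far more abundant and more uneven. miR-143-3p had 4724, 27482, 1510 and 8007 CPM in control replicates 1 to 4, and 2777, 775, 4101 and 1836 CPM in ethanol replicates 1 to 4. The groups overlapped, with control replicate 3 below 3 ethanol libraries, and the log2 fold change of -2.14 ± 0.76 did not pass (edgeR adjusted p = 0.0693). Without control replicate 2 it was -1.06 (edgeR adjusted p = 0.290), and it passed without ethanol replicate 3 (adjusted p = 0.0441). miR-145a-5p had 1101, 8729, 282 and 1171 CPM in control and 346, 246, 627 and 549 CPM in ethanol replicates 1 to 4. Its log2 fold change was -2.67 ± 0.82 (edgeR adjusted p = 0.0451), but -1.02 without control replicate 2 (adjusted p = 0.260), and the call was lost without any 1 of the 8 libraries (adjusted p 0.0612 to 0.260). miR-145a-3p, the other arm, had 589 counts in control replicate 2, 44 in control replicate 4, 11 and 14 in ethanol replicates 2 and 4 and 0 in the other 4 libraries, and did not pass (edgeR adjusted p = 0.151).

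In control replicate 2 the muscle miRNAs differed from each other. Its CPM over the median of the other controls was 2.31 for miR-499-5p, close to the upper quartile of 2.32 over 219 tested miRNAs, whose median was 1.60. It was 3.08 for miR-133a-3p, 4.45 for miR-1a-3p, 5.82 for miR-143-3p and 7.93 for miR-145a-5p, and only 3 miRNAs had a higher value than miR-145a-5p. Transcripts of smooth muscle were high in the same library: the 10 on the list, among them Mylk, a kinase of the contractile machinery, and Myh11, the smooth muscle myosin heavy chain, summed to 193 CPM there, against 40.7 to 86.1 in the other controls and 40.5 to 103 in ethanol libraries. None of the 10 was at 0 in all libraries and 0 of 7 tested passed in either direction (edgeR). Of 6532 tested mRNA exon features 24% passed, 23.8% with a higher level in ethanol. The 20 striated muscle transcripts, with Ttn and Neb highest, summed to 44.0 CPM in control replicate 2, inside both the 26.7 to 57.3 CPM of the controls and the 25.3 to 51.0 CPM of the ethanol libraries, and 0 of 3 tested passed (edgeR). The 3 went different ways, with log2 fold changes of 1.45 for Acta1, 0.73 for Neb and -0.80 for Ttn. Myh7b, the host gene of miR-499, had 10 exon and 9 intron counts over the 4 controls and 11 and 6 over the ethanol libraries, too few to be tested. Myh6 and Myh7 were rarer still, with 3 and 5 exon counts in controls and 5 and 2 in ethanol libraries.

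Marker miRNAs of other cell types are given beside these levels, and their counts are read against the 39.4% of all tested miRNAs that passed with a lower level and the miRNA median of -1.52. The 6 stromal and endothelial miRNAs summed to 23759 CPM in control replicate 2, against 4206 to 5469 in the other controls and 1445 to 4879 in ethanol libraries. Most of that library's sum was miR-21a-5p and miR-199a-3p, with 55614 and 33509 counts there. miR-199a-5p and miR-126a-5p also had their highest control counts in it. Other members did not: miR-126a-3p had 286 counts, against 153, 350 and 239 in control replicates 1, 3 and 4, and miR-214-3p had 0. On this list 2 of 5 tested fell, miR-199a-3p (log2 fold change -2.63 ± 0.75) and miR-199a-5p (-3.03 ± 0.87), with edgeR adjusted p of 0.0357 and 0.0371, a share near that of all miRNAs. All 3 tested red blood cell miRNAs fell, miR-451a (-3.04 ± 0.75), miR-144-5p (-3.04 ± 0.68) and miR-486a-5p (-2.37 ± 0.64), with edgeR adjusted p of 0.0286 to 0.0320, and their list summed to 84.9 to 1196 CPM in control and 30.7 to 116 CPM in ethanol libraries. The epithelial miR-200 family, with miR-200b-3p and miR-200a-3p highest, summed to 1316 to 4723 CPM in control and 1062 to 3709 CPM in ethanol libraries, and 0 of 4 passed (edgeR). Of the 5 listed, 4 had an entry. Among these miR-141-3p was at 0 in control replicates 1 and 4 and in ethanol replicates 3 and 4 (log2 fold change -1.22 ± 2.49). 2 of 3 white blood cell miRNAs fell, miR-223-3p (-1.996 ± 0.48) and miR-150-5p (-2.60 ± 0.62, edgeR adjusted p = 0.0286 for both), with list sums of 208.4 to 399 and 14.1 to 174 CPM, and the third, miR-142a-5p, was at 0 in 3 of the 8 libraries. Whether any of these lists differed from miRNAs in general was not tested. The part of these cells in the levels of the muscle miRNAs was not tested.

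Set against the other miRNAs rather than against the whole library, miR-499-5p was still at the low end in ethanol sperm. As CPM of miRNA counts (each count over the library's miRNA counts, without scaling factors) it stood at 23.5, 32.5, 22.0 and 15.0 in control replicates 1 to 4, and at 7.76, 9.21, 14.5 and 7.54 in ethanol replicates 1 to 4. The groups did not overlap, though the lowest control (95% exact binomial interval 7.74 to 26.2) and the highest ethanol library (6.94 to 26.6) were within counting error of each other. How many other miRNAs did not overlap on this scale was not counted. As above, miR-499-5p reached the tests only through the controls, so this is a description of its levels. The log2 ratio of miR-499-5p to all miRNA counts was different by -1.10 between ethanol and control (exact permutation p = 0.0286, the smallest that 4 against 4 can give; adjusted over 5 ratios p = 0.143), with ethanol lower in 4 of 4 libraries. In a fit of miRNAs alone the log2 fold change of miR-499-5p was -1.32 ± 0.36 (edgeR adjusted p = 0.226), against -0.87 ± 0.56 for miR-1a-3p (adjusted p = 0.660) and -0.71 ± 0.52 for miR-133a-3p (adjusted p = 0.704), so none passed there, where the median of the 241 tested miRNAs was -0.10. On the scale of miRNA counts miR-1a-3p stood at 1177 to 9209 CPM of miRNA counts in control and 1557 to 3227 in ethanol libraries, with every ethanol library inside the range of the controls.

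The ratio of miR-499-5p to each other muscle miRNA asks directly whether it differed apart from them. Per 1000 counts of miR-1a-3p (with 0.5 count added to each) there were 5.66, 3.58, 19.3 and 5.56 counts of miR-499-5p in control replicates 1 to 4, and 2.64, 7.39, 6.84 and 3.54 in ethanol replicates 1 to 4. The groups overlapped and control replicate 3 was highest. The mean log2 ratio differed by -0.55 between ethanol and control for miR-1a-3p (exact permutation p = 0.457), -0.51 for miR-133a-3p (p = 0.514), -0.99 for miR-143-3p (p = 0.257) and -0.95 for miR-145a-5p (p = 0.343). Adjusted over the 5 ratios these 4 p-values were 0.514 each. The 97.1% intervals of these differences, from the same exact permutation test, ran from -2.86 to 1.04, -2.99 to 0.92, -3.31 to 0.91 and -3.81 to 1.47. Each interval holds both no difference and a difference of several-fold, so these libraries do not show whether miR-499-5p followed those miRNAs or differed apart from them. Without control replicate 3 the first 2 differences were -0.05 and -0.08, without control replicate 2 they were -0.86 and -0.68, and without ethanol replicate 4 they were -0.42 and -0.11.

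**Figure D2:**
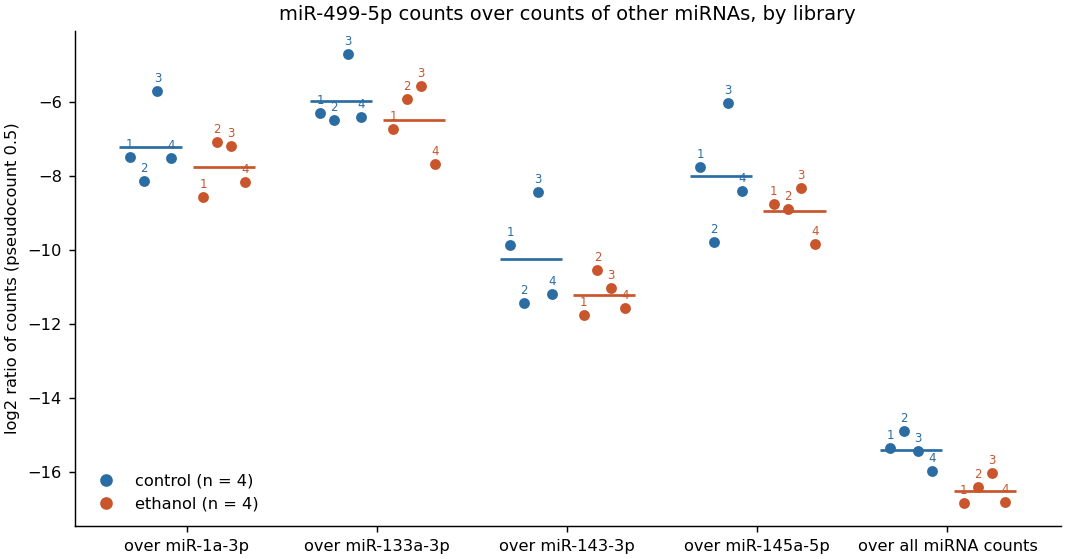
log2 ratio of miR-499-5p counts to the counts of 4 other muscle miRNAs and to all miRNA counts (pseudocount of 0.5 count), with 1 point per library, replicate numbers beside the points and a bar at each group mean. The groups overlap for the 4 muscle miRNAs, with control replicate 3 highest in each, and do not overlap for all miRNA counts.

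**Figure D3:**
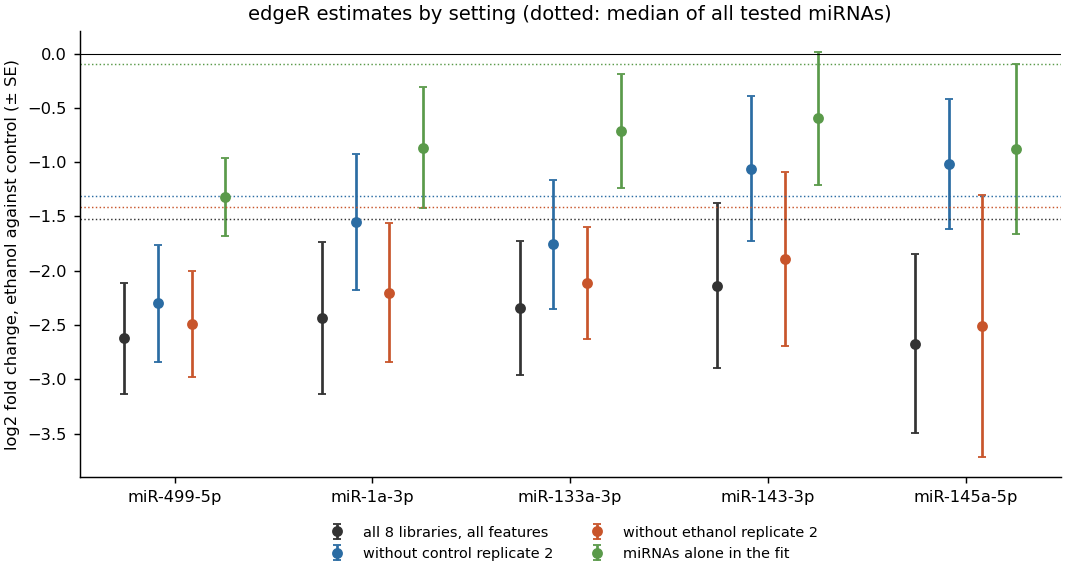
edgeR log2 fold change of ethanol against control with its standard error for 5 muscle miRNAs under 4 settings, with dotted lines at the median of all tested miRNAs in the same setting. Leaving out control replicate 2 moves miR-145a-5p from -2.67 to -1.02 and miR-1a-3p from -2.44 to -1.55, but miR-499-5p only from -2.62 to -2.30.

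By profile across the 8 libraries the miRNAs nearest to miR-499-5p were of other kinds. The 4 abundant muscle miRNAs came at ranks 113 to 152 of 225, and miR-145a-3p, which had 0 counts in some libraries, at 204. These ranks do not show whether miR-499-5p differed apart from the muscle miRNAs. Likeness was the root mean square distance between log2 CPM profiles, each centred on its mean, over 8 libraries and 225 other tested miRNAs. A prior count of 2 was added, which shrinks differences at low counts, and miR-499-5p had 2 to 10 counts in ethanol libraries. The 5 nearest were miR-463-5p and miR-465a-5p and the entry under the precursor name mir-881, all of the X-linked cluster expressed in male germ cells, together with miR-223-3p of myeloid cells and miR-130a-3p. Their distances were 0.295, 0.301, 0.377, 0.320 and 0.366. miR-133a-3p came at rank 113 (distance 0.738), miR-1a-3p at 123 (0.781), miR-143-3p at 147 (0.967) and miR-145a-5p at 152 (1.05). In control replicate 3 miR-499-5p was near the level of control replicate 1, while the other 4 were at their lowest among the controls. The log2 fold changes of these 5 ran from -2.04 for miR-465a-5p to -1.63 for mir-881, a description only, since they were chosen for their likeness to miR-499-5p over the same libraries. The ranks of the 4 muscle miRNAs stayed between 93 and 167 under 4 other settings chosen after seeing the data, though the nearest 5 did not: 0 of them were among the nearest 5 without control replicate 2, and 2 with a smaller prior count of 0.25. With that prior count miR-1a-3p and miR-133a-3p came nearer, at ranks 93 and 94.

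**Figure D4:**
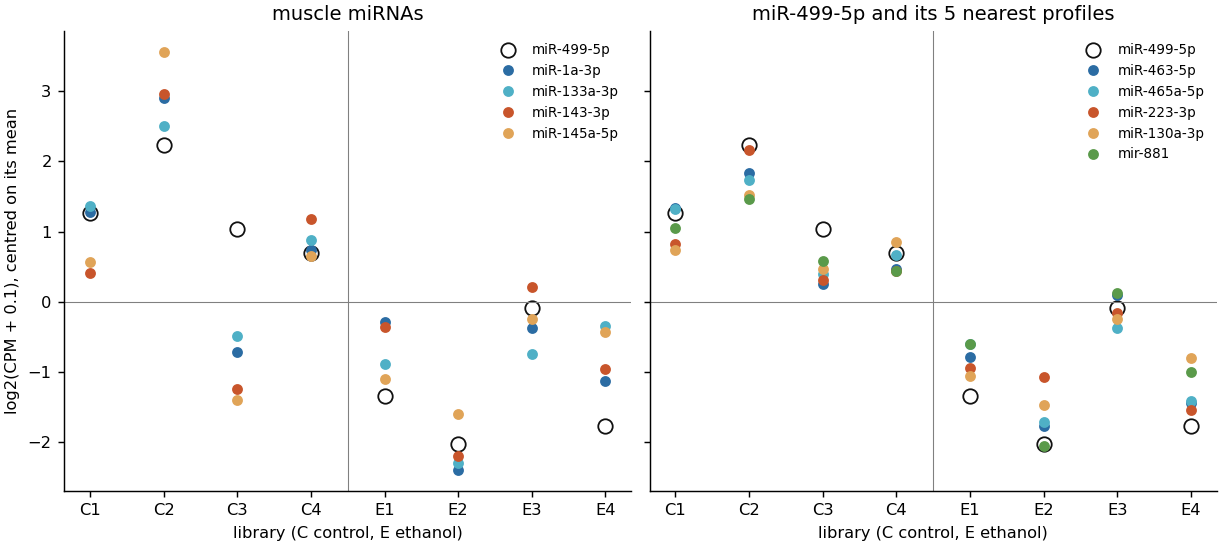
log2(CPM + 0.1) of single miRNAs in each library, centred on the mean over the 8 libraries, for the muscle miRNAs (left) and for miR-499-5p with its 5 nearest profiles (right); the open circle is miR-499-5p. In control replicate 3 the 4 other muscle miRNAs lie below their mean over libraries and miR-499-5p lies above its own.

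A list of 6 transcripts named as targets of miR-499 in muscle work was also read: Sox6, a repressor of slow fibre genes, the calcineurin subunits Ppp3ca and Ppp3cb, Purb, Sp3 and Cbx1. Fragments of them summed to 37.2 to 43.7 CPM in control and 46.5 to 76.8 CPM in ethanol libraries. How many other lists of transcripts had sums apart in this way was not counted. Most of the sum was Purb, with a mean of 26.5 CPM in control and 31.3 CPM in ethanol libraries. Of 5 tested 1 rose, Cbx1 (log2 fold change 1.73 ± 0.45, edgeR adjusted p = 0.0303), a heterochromatin protein gene, while 23.8% of 6532 mRNA exon features rose, which is near this share. The change of Ppp3ca was 1.35 ± 0.47 on the log2 scale and did not pass (edgeR adjusted p = 0.0649). Sp3 (0.76 ± 0.43), Ppp3cb (0.49 ± 0.35) and Purb (0.24 ± 0.34) did not pass either. Sox6 was too rare to be tested, with a mean of 2.04 CPM in control and 1.83 CPM in ethanol libraries. A link of these levels to miR-499-5p was not tested. Mib1, whose locus overlaps one copy each of miR-1a and miR-133a, had exon levels of 10.3 ± 1.26 CPM in control and 18.9 ± 8.73 CPM in ethanol sperm (SD, n = 4 each, edgeR adjusted p = 0.121), with overlapping groups.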

How the data were processed

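The values are raw counts in a table the authors deposited, with a row per annotated feature and a column per library code for 8 sperm libraries. Per the labels' protocols, Trizol and Qiaseq were used for small RNA sequencing. Aligner, counting rule, genome build and use of molecular identifiers: not given in the sources used here. The counts may be reads or molecules, and intervals cover counting error only. Members, lists and tests were chosen with earlier results of these data known.

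Rows of 1 name and type were summed, and a piRNA cluster was represented by its largest transcript, which left 45413 features. They were fitted with edgeR 4.0.16 in R 4.3.3 (TMM, filterByExpr with minimum count 10, robust quasi-likelihood fit, Benjamini-Hochberg adjustment, threshold 0.05), and members were read from that fit. CPM used TMM factors, and the standard error is the absolute log2 fold change over the square root of F. Ratios of counts were compared by two-sided exact permutation over 70 assignments. On simulated data the edgeR fit called 2% of 2-fold rises, 2% of 2-fold falls, 48% of 4-fold rises and 26% of 4-fold falls. A feature that did not pass may therefore still have changed. All pairs of libraries differed by more than counting noise (chi-square per degree of freedom 9.21 to 122). Alternatives used DESeq2 1.42.0 and limma 3.58.1. Named were all members, the smooth muscle miRNAs, host genes, the 5 nearest profiles and, per marker list, at most 4 genes that passed or otherwise the 2 highest in mean CPM. Others on a list were named to show its direction or what its sum rests on. Sequences are from RefSeq (GRCm38.p6), gene models from GENCODE M21. Python 3.11.15, scipy 1.17.1 and matplotlib 3.10.9 did the rest.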

Additional observations from a re-analysis of the deposited data

Results flagged for a closer look

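Of 22 groups of 4 libraries checked, 3 had a library far from the other 3 by Dixon's ratio of the gap to the range. Chance picks about 1 in 20 groups. For miR-145a-5p and miR-145a-3p in control sperm it was control replicate 2, with 8729 and 152 CPM, and miR-145a-3p was listed at 0 in control replicates 1 and 3. For the log2 ratio of miR-499-5p to miR-133a-3p in control sperm it was control replicate 3, at -4.69.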

How the results depend on the processing

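The direction of the 3 tested muscle miRNAs held in every alternative that gave a value, and miR-499-5p was not tested with a minimum count of 30. The log2 fold change of miR-499-5p was -2.65 with limma-voom (adjusted p = 0.0568) and -1.32 with miRNAs alone; over single libraries left out it ran from -3.35 to -2.30, and without replicate 2 of both groups it was -2.06 (adjusted p = 0.0115). Of the members, 3 passed by edgeR, 0 by limma-voom (3 at unadjusted p), 0 with miRNAs alone in edgeR (1 at unadjusted p), 1 without the ethanol libraries whose codes start with POM, 5 of 8 with no count filter, and 0 to 3 without single libraries (edgeR, 3 at unadjusted p in each). Of the 3 smooth muscle miRNAs, 1 passed; 2 passed with the DESeq2 Wald test and with no count filter, and 0 with DESeq2 size factors or library totals in edgeR (3 at unadjusted p), limma-voom or a minimum count of 30 (2 at unadjusted p), miRNAs alone (0), without either pair of ethanol libraries (0 without those with POM codes, 2 without the other pair), and, an alternative added after seeing the data, without replicate 2 of both groups (0); single libraries left out gave 0 to 1. Of all miRNAs 90 passed, 59 with library totals, 1 with limma-voom, 161 with no filter, 1 with miRNAs alone, 35 and 155 without the POM and POEM pairs, and 1 to 158 without single libraries. Of all features 1837 passed, 1201 with DESeq2 size factors, 3140 with DESeq2, 8 with limma-voom, 782 with a minimum count of 30, 3432 with no filter, 816 and 3303 without the pairs, and 3 to 3568 without single libraries. With library totals the median over all features was 0.25 instead of -0.01, and miR-1a-3p had an adjusted p of 0.0512. The causes were not tested. The replicate numbers are only numbers: deviations of same-numbered libraries correlated at 0.341, 0.209, -0.127 and -0.020. With the replicate block 3291 features and 126 miRNAs passed, 3 members passed still, miR-145a-5p lost its call (-1.55, adjusted p = 0.116), miR-145a-3p gained one (-4.13, adjusted p = 0.000241), and the log2 fold change of miR-499-5p was -2.58; for the ratios the block (sign flips) gave unadjusted p of 0.125 to 0.375, where 0.125 is the smallest possible. Without single libraries the log2 ratio of miR-499-5p differed by -0.86 to -0.05 for miR-1a-3p, -0.81 to -0.08 for miR-133a-3p, -1.40 to -0.40 for miR-143-3p, -1.55 to -0.29 for miR-145a-5p and -1.29 to -0.93 for all miRNA counts. miR-499-5p rests on 2 to 38 counts per library.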
